A study of Mus musculus with 6 samples.

Results

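The immediate early transcription factors examined here were 10 genes, Fos, Fosb, Jun, Junb, Egr1, Atf3, Btg2, Ier2, Nr4a1 and Nr4a3, chosen by gene symbol from the 16759 genes of the deposited table, with no filter on expression. All 10 were in the table, had reads in all 6 libraries and were tested. Their transcripts were measured by RNA sequencing in the hind leg muscles of male C57BL/6J mice that were 8 weeks old at the start. Each library was taken to be 1 mouse, which the labels and the study's text do not state. The 3 Con mice had no treadmill training. The 3 EX mice ran on a treadmill at moderate intensity over 6 weeks, on 5 days of each week for 60 min, a distance of 22 km for each mouse, and were killed 24 h after their last session. All mice were of the same strain and sex, and the hour at which the Con mice were killed is not given in the sources used here. Transcripts of some immediate early genes are known to vary over the day, so that a difference in hour between the groups, if there was one, cannot be told apart from training. The leg muscles were not separated by name, and the libraries hold RNA from fibres and from all other cells of the tissue. The EX and Con mice differ both by 6 weeks of training and by a last session 24 h before death. The study gives no earlier time point, so lasting effects of training and remains of the last session cannot be told apart. The study used perfusion through the heart with phosphate-buffered saline before the muscles were removed, and any effect of this handling was not tested.

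Immediate early genes are induced within minutes of a stimulus, from transcription factors that the cell already holds, such as SRF and CREB, and their messages are usually short-lived. Jun and Fos proteins pair to form the AP-1 factor, EGR proteins are zinc finger factors, and NR4A proteins are orphan nuclear receptors. In skeletal muscle, contraction is a known inducer of many of them, through calcium, MAP kinase and cyclic AMP signalling. Within the group, Btg2 encodes a co-regulator of transcription and mRNA decay that restrains cell division, and Ier2 a small nuclear protein, so that neither is a classical DNA-binding factor.

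The promoters of 4 members that changed are shown first, since cyclic AMP, AP-1 and MEF2 sites near the start are the textbook elements through which such genes are induced. Each line holds the 250 bases before the transcription start of one gene, read 5′ to 3′ on the gene's own strand from RefSeq sequences with GRCm38.p6 coordinates. Nr4a3 lies on the plus strand (chr4:48045055-48045304), and Btg2 (chr1:134079156-134079405), Atf3 (chr1:191183334-191183583) and Jun (chr4:95052223-95052472) lie on the minus strand. Capitals mark a match on either strand to one of the motifs described in the next paragraph.

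Nr4a3: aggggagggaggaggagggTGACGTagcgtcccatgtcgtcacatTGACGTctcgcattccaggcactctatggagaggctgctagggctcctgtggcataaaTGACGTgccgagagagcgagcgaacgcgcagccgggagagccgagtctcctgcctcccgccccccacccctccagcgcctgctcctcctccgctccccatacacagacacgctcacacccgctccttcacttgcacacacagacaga
Btg2: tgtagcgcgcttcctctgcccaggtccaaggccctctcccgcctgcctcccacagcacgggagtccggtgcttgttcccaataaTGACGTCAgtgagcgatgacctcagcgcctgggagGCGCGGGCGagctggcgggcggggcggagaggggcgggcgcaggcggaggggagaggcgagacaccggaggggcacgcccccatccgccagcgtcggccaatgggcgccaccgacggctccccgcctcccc
Atf3: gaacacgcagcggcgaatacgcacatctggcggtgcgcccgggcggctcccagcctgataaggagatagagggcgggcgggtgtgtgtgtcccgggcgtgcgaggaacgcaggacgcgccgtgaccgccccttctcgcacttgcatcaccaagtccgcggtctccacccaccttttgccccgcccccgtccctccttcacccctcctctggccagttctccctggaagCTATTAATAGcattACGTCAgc
Jun: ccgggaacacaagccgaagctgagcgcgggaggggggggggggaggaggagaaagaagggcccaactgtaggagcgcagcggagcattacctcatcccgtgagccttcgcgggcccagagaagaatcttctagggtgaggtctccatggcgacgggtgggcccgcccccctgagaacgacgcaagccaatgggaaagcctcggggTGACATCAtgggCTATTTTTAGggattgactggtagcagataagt

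The motifs searched on both strands were the cyclic AMP response element TGACGTCA and its shorter form TGACGT, which lies inside it, the AP-1 sites TGANTCA and TGACATCA, the EGR site GCGNGGGCG, the NR4A site AAAGGTCA, the TATA box TATAAA, the CArG box bound by SRF and the MEF2 site. RefSeq promoters were matched for 8 of the 10 members, without Egr1 and Ier2. The shorter form TGACGT was in 4 of these 8 promoters (Nr4a3, Btg2, Atf3 and Fos), and in 6.47% of all 32851 mouse promoters of this length. Nr4a3 held it at 3 places, which began 231, 205 and 147 bases before the start. Btg2 was the 1 member with the whole element TGACGTCA, 166 bases before the start, and 1.55% of all promoters held it. Jun held TGACATCA 45 bases before the start, a form found in 2.93% of all promoters, and a MEF2 site 33 bases before it. Atf3 also held a MEF2 site, 22 bases before its start, and 2.92% of all promoters did. The EGR site was in Btg2, Fosb and Nr4a1 and in 4.7% of all promoters, and TATAAA was in Fos and in 12.4% of all promoters. TGANTCA, AAAGGTCA and the CArG box were in none of the 8 windows, against 6.75%, 1.34% and 1.47% of all promoters. Sequence outside these windows was not searched, and neither were the promoters of Egr1 and Ier2. Absence from a window therefore does not show that a gene lacks the site. No motif of this set was in the Junb window. The 8 windows were between 58.4% and 74.4% G and C, above the median of 52.4% over all promoters. A match says only that the letters are present, and no binding was measured.

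Of the 10 members, 3 were higher in EX (Nr4a3, Atf3 and Jun), 3 were lower (Btg2, Egr1 and Junb) and 4 did not pass the test (Fos, Fosb, Ier2 and Nr4a1). The test was edgeR's quasi-likelihood test at an adjusted p-value under 0.05. Over all 16716 genes tested, 12.0% passed it, 6.08% as higher and 5.96% as lower (1016 and 997 genes, against 315 and 1183 when limma was run on log2(TPM + 0.1)), and 16.8% did among the 10883 genes whose mean reached 1 FPKM, the deposited unit of reads per length of transcript and per depth of library. In 7 of the 10 members the 3 EX values lay all above or all below the 3 Con values, whereas 26.7% of all genes tested were separated in this way. The median log2 fold change of the members was 0.04 and the median size of their change, regardless of sign, was 0.48, against -0.00 and 0.14 for all genes tested. The set therefore split in both directions around a median near 0. With DESeq2, where 9.15% of the genes with an adjusted p-value passed, 2 members were higher and 3 lower.

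Total counts per library lay between 13845362 and 16240431, so that 3 counts, taken as the floor, stand for 0.188 to 0.214 CPM, the count scaled to library size. All 10 members lay above this floor in all 6 libraries, and the least expressed, Fosb, rested on 8 to 24 reads. No 2 libraries agreed within sampling noise, which does not show whether they came from separate mice. They were taken as 3 separate mice per group. The fitted spread between libraries beyond counting error, common to all genes, was 0.0329 as a coefficient of variation. The adjusted p-values depend on the spread between libraries. Within groups the SD of the members' log2 CPM ran from 0.03 for Jun to 0.26 for Fosb, with a median of 0.08, which was also the median over genes reaching 1 FPKM. Con mouse 1 had the highest value of its group for 6 members (Fos, Jun, Junb, Egr1, Nr4a1 and Nr4a3), Con mouse 2 for 1 and Con mouse 3 for 3. Counting error and differences between mice are both in these spreads.

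**Figure D1:**
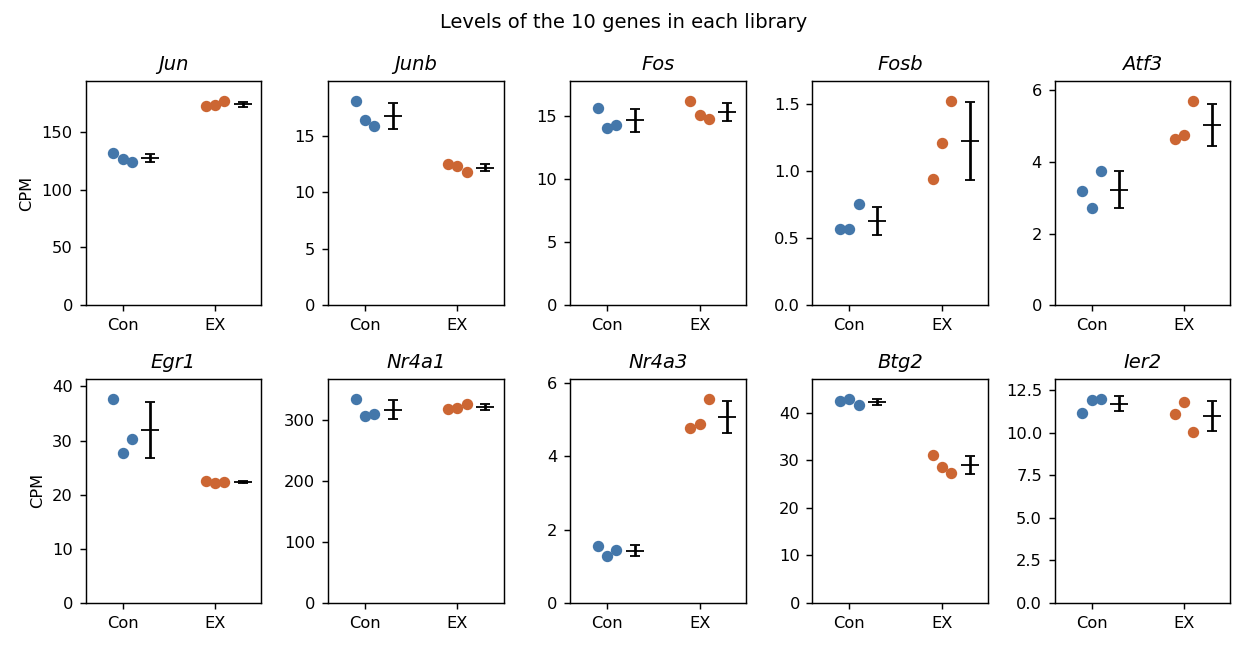
Normalised level in CPM (linear axes from 0) of each of the 10 members in each library, with Con and EX side by side, points for single mice and black bars for the mean and SD of each group. EX points of Nr4a3, Jun, Atf3 and Fosb lie above all Con points, those of Btg2, Egr1 and Junb lie below them, and the groups of Fos, Ier2 and Nr4a1 overlap.

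Nr4a3, also called NOR-1, showed the largest change of the members and was the rarest but one. Its counts were 22, 20 and 23 in the Con mice and 76, 77 and 88 in the EX mice. In CPM these were 1.57, 1.27 and 1.44 in Con and 4.78, 4.88 and 5.57 in EX, with no overlap. The mean rose from 1.42 ± 0.150 to 5.08 ± 0.429 CPM (SD, n = 3 each), a log2 fold change of 1.83 (SE 0.18, 95% interval 1.46 to 2.20, adjusted p = 1.2e-10). This 3.56-fold increase ranked 44 among the 1016 increases. On log2(FPKM + 1), where the pseudocount exceeds the mean level of the gene in either group, the change was 0.61 and kept its call. The NR4A receptors have no known ligand that they require, so that their amount is usually taken to set their activity.

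Nr4a1 (Nur77), the relative that is most abundant in this tissue, did not follow it. Its CPM were 333.5, 306.0 and 309.2 in Con and 316.8, 319.1 and 325.6 in EX. The groups overlapped, and the log2 fold change was 0.02 (SE 0.04, 95% interval -0.06 to 0.10, adjusted p = 0.81). Its sign turned negative under 5 alternative settings, so no direction can be given. Nr4a2 (Nurr1), the other receptor of the family and not a member, was counted 15, 12 and 17 times in Con mice and 30, 28 and 33 times in EX mice. It rose with a log2 fold change of 0.99 (SE 0.25, adjusted p = 5.23e-03), a call that was lost with DESeq2 (adjusted p = 0.087) and without Con mouse 2 (adjusted p = 0.0575). Within each library Nr4a1 made up nearly all NR4A transcripts per length, with a mean of 99.55% in Con and 98.8% in EX. The share of Nr4a3 was 0.224%, 0.174% and 0.224% in Con and 0.685%, 0.677% and 0.775% in EX. The shares of Nr4a3 did not overlap, and the exact permutation test gave a two-sided p of 0.1, the smallest that 3 against 3 mice allow.

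Jun, the DNA-binding AP-1 subunit whose product drives proliferation and stress responses, was the most abundant AP-1 member. Its CPM were 131.3, 126.5 and 123.9 in Con and 172.0, 173.1 and 176.2 in EX. The highest Con mouse was thus well under the lowest EX mouse. The mean rose from 127.3 ± 3.75 to 173.8 ± 2.21 CPM (SD, n = 3 each), with a log2 fold change of 0.45 (SE 0.04, 95% interval 0.37 to 0.53, adjusted p = 1.11e-11), or 1.37-fold.

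Junb, a weaker activator that often acts against Jun and has been tied to the upkeep of muscle mass, went the other way. It had 18.1, 16.4 and 15.9 CPM in Con and 12.5, 12.3 and 11.8 CPM in EX. All EX mice lay below all Con mice, and the log2 fold change was -0.46 (SE 0.09, 95% interval -0.63 to -0.28, adjusted p = 9.78e-05). Jund, the constitutive member of the JUN family, was measured beside them and rose slightly, with a log2 fold change of 0.20 (SE 0.07, adjusted p = 0.0356). That call on Jund was lost in 11 of 14 alternatives (adjusted p between 0.0517 and 0.322), among them DESeq2, all fits with limma and 5 of the 6 that left out a mouse.

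The opposite movements of Jun and Junb changed the balance of JUN transcripts. The ratio of Jun to Junb, in FPKM within each library, was 3.85, 4.08 and 4.11 in Con and 7.28, 7.45 and 7.91 in EX. Its mean went from 4.02 ± 0.145 to 7.54 ± 0.325 (SD, n = 3 each) with no overlap, and the exact permutation test gave its smallest possible p of 0.1. Of all JUN family transcripts per length, Jun took 68.3% ± 0.525 in Con and 76.1% ± 0.781 in EX. Junb took 17.0% ± 0.673 and 10.1% ± 0.347. Jund took 14.7% ± 1.02 and 13.8% ± 0.578, with overlapping groups (exact permutation p = 0.3). The summed JUN level was 66.4 ± 1.37 FPKM in Con and 78.2 ± 1.19 FPKM in EX, without overlap.

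Fos, the best-known partner of Jun, did not differ beyond the spread between mice at this time. Its CPM were 15.7, 14.0 and 14.3 in Con and 16.1, 15.1 and 14.7 in EX. The groups overlapped, and the log2 fold change was 0.07 (SE 0.08, 95% interval -0.10 to 0.24, adjusted p = 0.662), with a negative sign on log2(TPM + 0.1).

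Fosb, whose product forms longer-lived AP-1 dimers in its truncated form, was the rarest member. Its counts were 8, 9 and 12 in Con and 15, 19 and 24 in EX. The EX mice all lay above the Con mice, with means of 1.22 ± 0.288 against 0.630 ± 0.105 CPM (SD, n = 3 each). The log2 fold change was 0.94 (SE 0.33, 95% interval 0.28 to 1.60), and the adjusted p of 0.0502 lay just beyond the threshold. The table gives 1 value per gene, so the full-length and truncated forms were not told apart.

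Among the relatives of Fos, Fosl2 (Fra-2) rose. Its CPM were 16.7, 16.5 and 15.5 in Con and 29.0, 26.6 and 28.6 in EX, a log2 fold change of 0.79 (SE 0.07, adjusted p = 9.08e-12). Fosl1 had 0 or 3 counts in each library, at or under the floor, and was given no fold. As a share of FOS family transcripts per length, Fos took 72.1% ± 1.54 in Con and 61.0% ± 1.37 in EX, and Fosl2 took 25.8% ± 0.905 and 36.0% ± 1.09. Both shares were apart between the groups (exact permutation p = 0.1 each, the smallest possible). The share of Fosb overlapped, with means of 1.64% and 2.60% (exact permutation p = 0.2). The ratio of summed JUN to summed FOS transcripts was 5.72 ± 0.0967 in Con and 5.67 ± 0.216 in EX, with overlapping groups (exact permutation p = 1.0). The summed FOS level was 11.6 ± 0.439 FPKM in Con and 13.8 ± 0.685 FPKM in EX (SD, n = 3 each), without overlap. Together the AP-1 families thus differed in summed level and in composition, by a rise of Jun and Fosl2 and a fall of Junb.

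**Figure D2:**
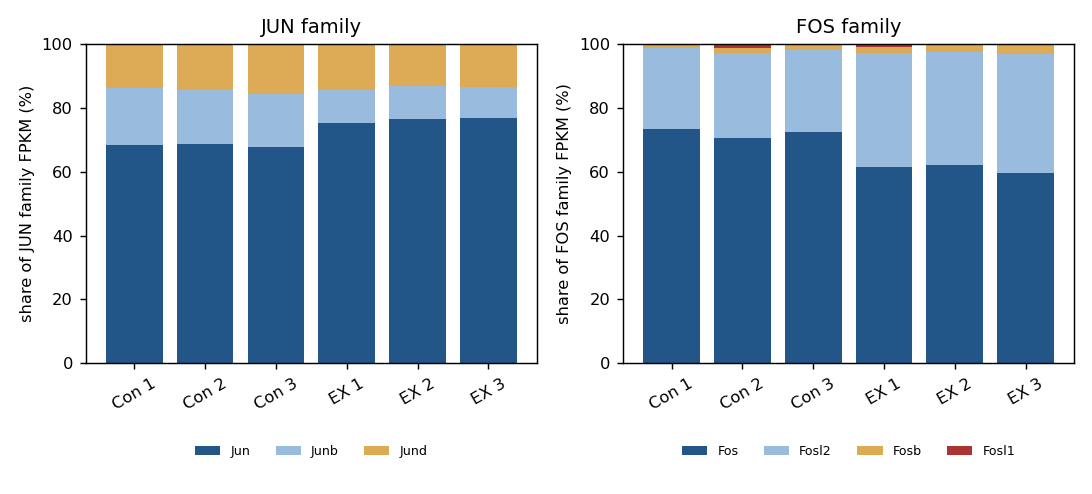
Stacked shares of JUN family (left) and FOS family (right) transcripts, in percent of summed FPKM, within each of the 6 libraries. Jun rose from a mean of 68.3% to 76.1% of the JUN family and Junb fell from 17.0% to 10.1%, while Fosl2 rose from 25.8% to 36.0% of the FOS family.

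Atf3, a stress-induced member of the ATF family that binds to AP-1 and cyclic AMP sites and mostly represses, was low but measurable. It was covered by 45, 43 and 60 reads in Con mice and by 74, 75 and 90 reads in EX mice. In CPM the values were 3.20, 2.73 and 3.76 in Con and 4.65, 4.76 and 5.69 in EX, with no overlap. The log2 fold change was 0.64 (SE 0.16, 95% interval 0.32 to 0.95, adjusted p = 3.39e-03), or 1.56-fold. This call was the least stable of the 6. It was lost with DESeq2 (adjusted p = 0.0541), with limma on FPKM or TPM (adjusted p between 0.0617 and 0.067), without Con mouse 2 (adjusted p = 0.0538) and without EX mouse 3 (adjusted p = 0.0662), and its direction was kept under all of these, with 0.41 on log2(FPKM + 1).

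Egr1, a zinc finger factor and a widely used mark of recent stimulation, fell. Its CPM were 37.7, 27.7 and 30.3 in Con and 22.6, 22.2 and 22.3 in EX. The EX mice lay below all Con mice, and Con mouse 1 lay above the other Con mice. The EX counts of 359, 350 and 353 lay closer together than counting error alone would usually place them. Their SD is therefore no measure of the spread between mice. The mean went from 31.9 ± 5.16 to 22.4 ± 0.179 CPM (SD, n = 3 each), with a log2 fold change of -0.51 (SE 0.08, 95% interval -0.66 to -0.35, adjusted p = 2.59e-06). Without Con mouse 1 the log2 fold change was -0.38 (adjusted p = 0.00106). The ratio of Egr1 to Fos in FPKM fell from 1.41 to 0.949, without overlap (exact permutation p = 0.1). Egr3, a related factor with 27 to 35 counts per library, had a log2 fold change of -0.18 (SE 0.21, adjusted p = 0.656), and its groups overlapped.

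Btg2 also fell. Its CPM were 42.4, 42.9 and 41.6 in Con and 31.2, 28.6 and 27.4 in EX. All EX mice lay below all Con mice. The mean fell from 42.3 ± 0.671 to 29.1 ± 1.93 CPM (SD, n = 3 each), with a log2 fold change of -0.54 (SE 0.06, 95% interval -0.66 to -0.42, adjusted p = 2.16e-09). This decrease and that of Egr1 were close in size, and without Con mouse 2 that of Egr1 was the larger (-0.60 against -0.53). Of its relatives, Btg1 (log2 fold change -0.08, adjusted p = 0.502) and Btg3 (-0.09, adjusted p = 0.771) did not pass the test and overlapped between groups. Tob1 and Tob2, more distant relatives that recruit the same mRNA deadenylases, rose. Tob1 went from 388.5 ± 15.3 to 480.1 ± 7.61 CPM (log2 fold change 0.31, SE 0.04, adjusted p = 1.6e-08), and Tob2 had a log2 fold change of 0.34 (SE 0.04, adjusted p = 1.71e-08). The ratio of Tob1 to Btg2 in FPKM was 12.3, 13.0 and 13.6 in Con and 22.1, 23.3 and 24.5 in EX.

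Ier2 had 11.2, 11.9 and 12.0 CPM in Con and 11.1, 11.8 and 10.1 CPM in EX. The groups overlapped, with a log2 fold change of -0.09 (SE 0.10, adjusted p = 0.603). Ier3, which encodes an inhibitor of cell death, fell (log2 fold change -0.38, SE 0.11, adjusted p = 0.0151). Its call was lost in 7 of 14 alternatives (adjusted p between 0.0513 and 0.176), among them DESeq2 and 5 of the 6 fits that left out a mouse. Ier5 had a log2 fold change of 0.15 (SE 0.07, adjusted p = 0.159).

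**Figure D3:**
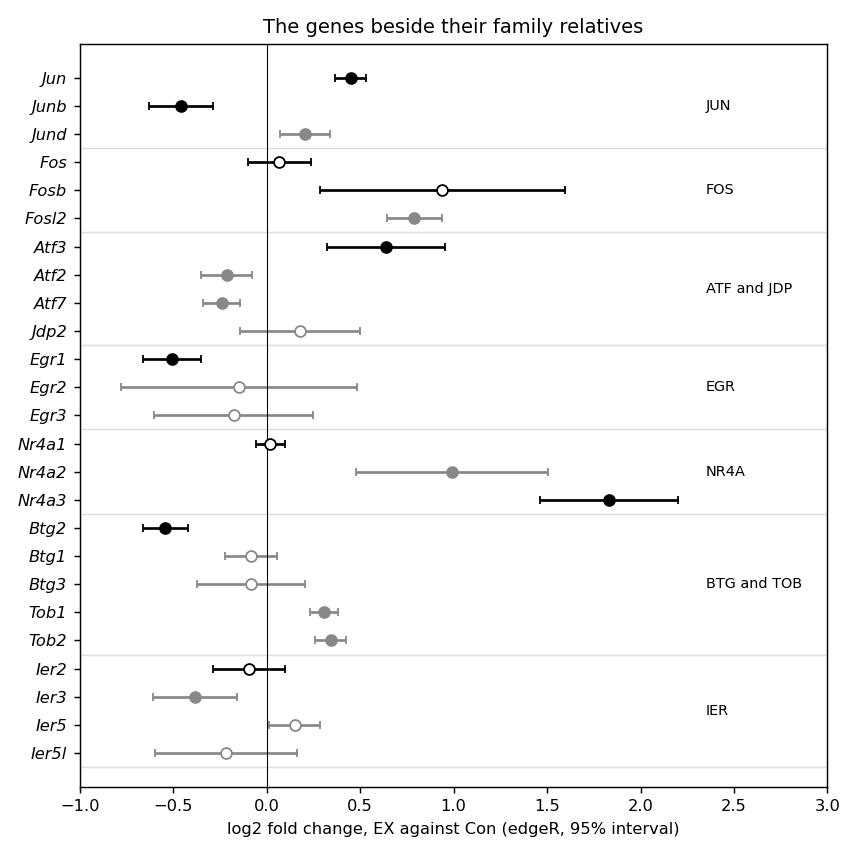
Log2 fold change of EX over Con with its 95% interval, by family, for the members (black) and their relatives (grey), with filled points for genes past the threshold and without relatives of a mean under 0.3 FPKM. In the JUN family genes lie on both sides of 0, with Jun at 0.45 and Junb at -0.46, and Fosl2 of the FOS family lies at 0.79.

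Ordered by level per length in Con, the members ran from Nr4a1 at 135.6 FPKM through Jun at 45.3, Btg2 at 15.6, Egr1 at 11.8, Junb at 11.3, Ier2 at 9.96, Fos at 8.37, Atf3 at 1.99 and Nr4a3 at 0.283 to Fosb at 0.190 FPKM. The values of Egr1 overlapped those of Junb, and those of Nr4a3 overlapped those of Fosb, so these neighbours were not told apart. In EX the order began with Nr4a1 at 133.1, Jun at 59.5 and Btg2 at 10.3 FPKM. Ier2 (8.97), Fos (8.42), Egr1 (7.98) and Junb (7.89) then followed, and each overlapped the next. Atf3 at 2.98, Nr4a3 at 0.960 and Fosb at 0.357 FPKM came last in the same order as in Con. Egr1 and Junb, which in Con stood above Ier2 and Fos by their means, thus stood below both in EX. The largest log2 fold changes in size were those of the lowest genes, Nr4a3 and Fosb, of which Fosb did not pass the test.

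Across the wider families, 19 relatives were tested and Egr4 was not analysed here. Of these, 5 were higher (Fosl2, Nr4a2, Jund, Tob1 and Tob2), 3 were lower (Ier3, Atf7 and Atf2) and 11 did not pass, which is 42.1% called against 12.0% of all genes tested. Their median log2 fold change was -0.05. Atf2 and Atf7, constitutive factors that pair with Jun at cyclic AMP sites, had log2 fold changes of -0.21 (adjusted p = 0.0243) and -0.24 (adjusted p = 3.9e-04). Atf7 kept its call in all 14 alternatives, and Atf2 lost it in 6 (adjusted p between 0.0521 and 0.171), with DESeq2 and in 5 of the 6 fits that left out a mouse. With DESeq2, 3 relatives were higher and 1 was lower.

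Of 37 other genes known as immediate early, 11 were higher, 7 were lower and 19 did not pass. This was 48.6% called, against 12.0% of all genes tested and 16.8% of those reaching 1 FPKM. Their median log2 fold change was 0.08, and on log2(TPM + 0.1) the split was 5 higher and 9 lower. Klf4, a Krüppel-like factor, rose from 18.9 ± 0.938 to 29.9 ± 1.16 CPM (SD, n = 3 each), with a log2 fold change of 0.67 (adjusted p = 3.16e-10). Sik1, a kinase induced by cyclic AMP that restrains CREB coactivators, rose by a log2 fold change of 0.54 (adjusted p = 1.07e-06). Arc, best known from neurons, had 27 to 39 counts in Con and 43 to 54 in EX (log2 fold change 0.57, adjusted p = 0.0431), and its call was lost in 11 of 13 alternatives (adjusted p between 0.0522 and 0.258). Plk2, a polo-like kinase, and Cebpd, a bZIP factor, each fell with a log2 fold change of -0.39 (adjusted p = 1.7e-04 and 9.5e-04), and the call on Cebpd was lost on log2(FPKM + 1) and without EX mouse 1 (adjusted p = 0.0564 and 0.0827). Bhlhe40, a repressor with a part in the circadian clock, fell from 258.5 ± 6.79 to 201.6 ± 2.50 CPM (log2 fold change -0.36, adjusted p = 9.71e-10).

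The 22 feedback inhibitors included phosphatases of MAP kinases, proteins that promote mRNA decay, EGR corepressors and inhibitors of cytokine and NF-kB signalling. Of these, 2 were higher, 4 were lower and 16 did not pass. This was 27.3% called, against 12.0% of all genes tested and 16.8% of those reaching 1 FPKM. Their median log2 fold change was -0.06. With DESeq2, 2 were higher and 2 lower, and each limma fit gave 1 higher and 4 lower. Leaving out a mouse gave 2 higher and 2 to 3 lower. Dusp10, a phosphatase of p38 and JNK kinases, fell from 130.1 ± 7.13 to 78.4 ± 1.43 CPM, with a log2 fold change of -0.73 (adjusted p = 6.12e-17). Zfp36 (tristetraprolin), which promotes decay of AU-rich messages, fell with a log2 fold change of -0.41 (adjusted p = 1.17e-04). Socs3, a cytokine signalling inhibitor, fell with one of -0.37 (adjusted p = 0.030), a call lost in 6 of 14 alternatives (adjusted p between 0.0541 and 0.199). Dusp1, a phosphatase of MAP kinases, rose from 84.9 ± 2.31 to 101.6 ± 1.70 CPM (log2 fold change 0.26, adjusted p = 3.22e-05), and Zfp36l1 rose with a log2 fold change of 0.27 (adjusted p = 1.21e-03), a call lost in the 3 fits with limma (adjusted p between 0.0729 and 0.103).

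Of 28 upstream kinases and constitutive factors, 4 were higher, 6 were lower and 18 did not pass. This was 35.7% called, against 12.0% of all genes tested and 16.8% of those reaching 1 FPKM. Their median log2 fold change was 0.02. There were 1 higher and 6 lower on log2(TPM + 0.1) and 4 higher and 2 lower with DESeq2. Srf had a log2 fold change of 0.06 (SE 0.05, adjusted p = 0.497) and Creb1 of 0.10 (SE 0.08, adjusted p = 0.487). Mrtfa, a coactivator of SRF, and Map2k2, a kinase of ERK, both rose with a log2 fold change of 0.33 (adjusted p = 1.6e-05 and 3.8e-06), and Map2k6, a kinase of p38, with one of 0.29 (adjusted p = 2.77e-05). The calls on Map2k2 and Map2k6 were lost in the 3 fits with limma (adjusted p between 0.0881 and 0.395), and Mrtfa kept its call in all 14 alternatives. Elk4, a ternary complex factor, and Crtc2, a CREB coactivator, fell with log2 fold changes of -0.35 (adjusted p = 0.0215) and -0.32 (adjusted p = 1.73e-03). Rps6ka1, a kinase downstream of ERK, fell with one of -0.24 (adjusted p = 0.0414). Elk4 lost its call in 9 of 14 alternatives (adjusted p between 0.0537 and 0.197), Rps6ka1 in 8 (0.0716 to 0.347) and Crtc2 in 1, without EX mouse 3 (0.0586). These are transcript levels, and the activity of the kinases was not measured.

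Of 12 genes of glucose and fat use that are linked to NR4A receptors in muscle, 7 were higher, 1 was lower and 4 did not pass. This was 66.7% called, against 12.0% of all genes tested and 16.8% of those reaching 1 FPKM. Their median log2 fold change was 0.14. The median size of their change was 0.15, against 0.14 for all genes tested and 0.10 for those reaching 1 FPKM. The split was 3 higher and 2 lower on log2(FPKM + 0.1) and 2 higher and 3 lower on log2(TPM + 0.1). Ucp3, a mitochondrial carrier of fat-burning muscle, rose from 175.3 ± 14.1 to 246.6 ± 2.92 CPM (log2 fold change 0.49, adjusted p = 2.72e-12), and it also passed on both of these scales (adjusted p = 5.55e-03 and 6.87e-03). Prkag3, a muscle subunit of AMP-activated kinase, rose with a log2 fold change of 0.33 (adjusted p = 1.84e-08), and Pgam2, a glycolytic enzyme, with one of 0.23 (adjusted p = 5.92e-07). Cd36, a fatty acid transporter, fell with one of -0.15 (adjusted p = 3.93e-03). Pgam2 lost its call in the 3 fits with limma (adjusted p between 0.0789 and 0.11) and Cd36 without EX mouse 3 (adjusted p = 0.0961).

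Heat-inducible chaperones, which respond to another acute stress of running muscle, were compared with the members. Of 10 such genes, 7 were higher, 0 were lower and 3 did not pass. This was 70.0% called, against 12.0% of all genes tested and 16.8% of those reaching 1 FPKM. Their median log2 fold change was 0.26, and 6 or 7 were higher under every alternative. Dnajb1, a co-chaperone, rose from 10.2 ± 1.03 to 18.7 ± 0.164 CPM (log2 fold change 0.88, adjusted p = 1.24e-10). Hspa1a and Hspa1b had log2 fold changes of 1.11 (adjusted p = 5.31e-11) and 1.25 (adjusted p = 1.45e-11), but they are near-identical copies with counts that are not whole, so their division between the copies is uncertain. Unlike the members, this list held no called decrease.

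**Figure D4:**
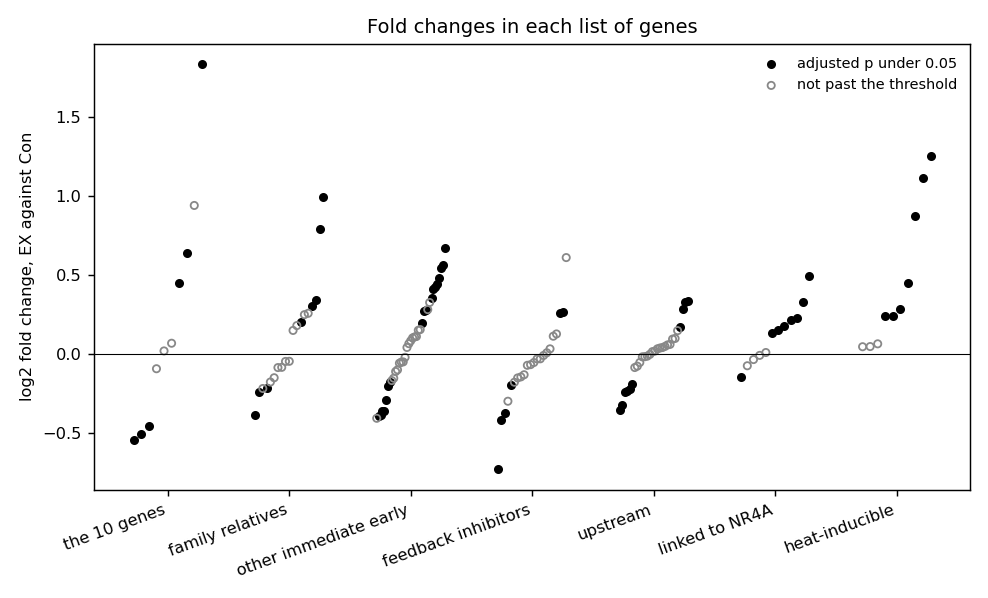
Log2 fold change of EX over Con for each gene of the members and the 6 other gene lists, with filled points past the threshold and open points for the rest, in rising order within each list. The members spread from -0.54 to 1.83 around a median of 0.04, and the heat-inducible chaperones lie above 0 throughout.

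The tissue label was checked against marker genes. Summed muscle fibre markers made up 118200 to 123300 CPM in Con and 124800 to 131900 CPM in EX, with 1 of 6 higher, 3 lower and a median log2 fold change of -0.03. Acta1, the skeletal muscle actin, was the marker that rose (log2 fold change 0.22), and Myh2, the myosin of type IIA fibres, fell most (log2 fold change -0.75, adjusted p = 6.7e-22), with Mb at -0.14 and Myh1 at -0.09. Macrophage markers summed to 16.3 to 18.9 CPM in Con and 29.1 to 30.3 in EX, with 3 of 5 higher and 0 lower. Fat cell markers summed to 3.56 to 3.82 CPM in Con and 8.92 to 11.5 in EX, with 4 of 4 higher. Among them Lep had 1, 2 and 0 counts in Con, under the floor, and Plin1 had 15, 8 and 6. Smooth muscle and pericyte markers summed to 842.7 to 870.7 CPM in Con and 677.4 to 706.7 in EX, with 3 of 4 lower and 1 higher. Endothelial markers summed to 545.6 to 558.0 CPM in Con and 469.0 to 492.7 in EX, with 3 of 5 lower and 0 higher. Fibroblast markers summed to 456.8 to 504.1 CPM in Con and 527.2 to 542.4 in EX, with 1 of 5 higher and 0 lower. The higher marker was Col1a1, a collagen chain, at 86.4 against 157.1 CPM, while Dcn, the most abundant of the list, had means of 330.8 in Con and 309.4 in EX and did not pass. Satellite cell markers overlapped between the groups, at 26.2 to 29.7 and 27.0 to 29.0 CPM, and neutrophil markers lay at 0.190 to 0.498 and 0.0634 to 0.251 CPM, near the floor. None of the markers was at 0 in all mice of a group. The summed endothelial and mural markers thus moved in the direction of Egr1, Junb and Btg2, except for Acta2, the smooth muscle actin, which rose (log2 fold change 0.15, adjusted p = 0.0389). The summed macrophage and fat cell markers moved in that of Nr4a3, Atf3 and Jun, and the part of all these cells in the results was not tested. In whole muscle, fewer cells of a type and less RNA per cell cannot be told apart.

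The profile of the members over the 6 libraries was compared with that of all other genes of at least 1 FPKM, as the root mean square difference of log2 CPM after centring each gene. The mean profile of the 8 members at this level was nearly flat, between -0.04 and 0.09, and the 10 nearest genes did not pass the test in either direction. They were Dpy19l1 at 0.0121, Morf4l1 at 0.0171 and Gba2 at 0.0176, followed by Nde1, Gcdh, Inppl1, Tbc1d5, Tm9sf4, Ppp1r7 and Zfyve9. Single members were therefore also used, a choice made after the values were seen. Nearest to Nr4a3 were Actc1, the cardiac form of actin, at 0.118, Slc25a25, a mitochondrial carrier, at 0.166, and Lyve1 at 0.213. Nearest to Jun were Tuba4a at 0.0164, Vit at 0.0195 and Hsp90aa1, a chaperone, at 0.0219. Nearest to Egr1 were Pde4c at 0.0375 and Cbx7 at 0.058, and nearest to Btg2 were Mss51 at 0.0365 and Tcim at 0.0497. Tgtp1 was nearest to Junb at 0.0283, Nudt14 to Atf3 at 0.0828 and C1qa to Fosb at 0.109. These likenesses rest on 6 libraries that share depth and group, and are given as a description.

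**Figure D5:**
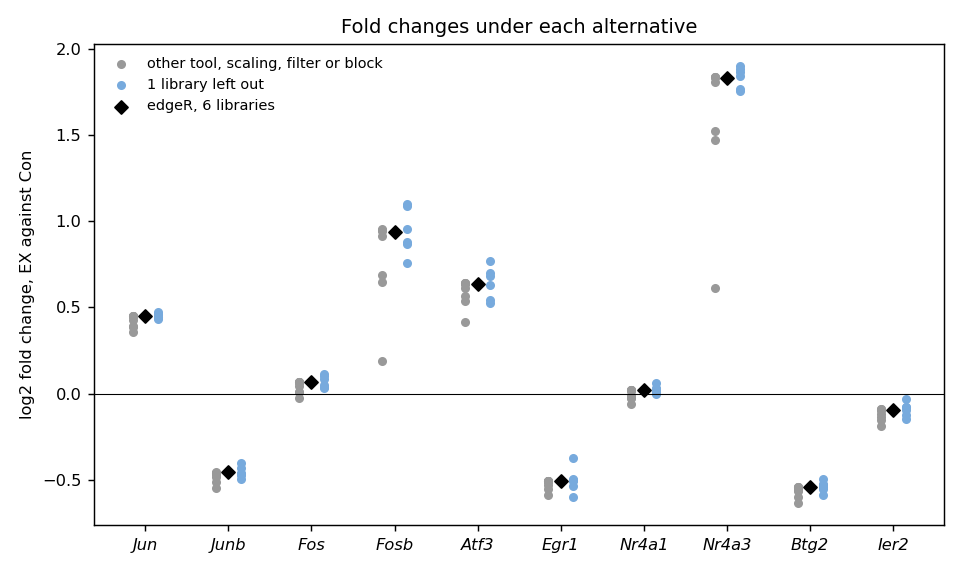
Log2 fold change of EX over Con of each member with edgeR on 6 libraries (diamonds), with 1 library left out (blue) and with another tool, scaling, filter or block (grey). All points of Jun, Atf3, Fosb and Nr4a3 lie above 0 and all of Junb, Egr1, Btg2 and Ier2 below 0, while Fos and Nr4a1 have points on either side.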

How the data were processed

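Total RNA of hind leg muscle was sequenced by the authors as paired reads on the DNBseq platform, in 3 Con and 3 EX libraries. The authors deposited estimated counts, which are not normalized, together with FPKM and TPM values derived from them, for each gene in each library. The study's text names HISAT and GRCm39, whereas the submitters' processing notes name GRCm38.p6, cutadapt, featureCounts and MultiQC without versions, and the strand setting of the counting is not given in the sources used here. 6 columns with group means were not used here.

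Estimated counts were rounded to whole numbers and tested with edgeR 4.0.16 (TMM, glmQLFit and glmQLFTest) in R 4.3.3 on the 16716 genes with at least 1 count, with Benjamini-Hochberg adjustment over all of them and a threshold of 0.05. The standard error was the log2 fold change divided by the root of the F statistic. CPM used TMM library sizes. Ratios and shares used deposited FPKM within each library and exact two-sided permutation tests (scipy 1.17.1). Alternatives were DESeq2 1.42.0, limma 3.58.1 on log2(FPKM + 0.1), log2(FPKM + 1) and log2(TPM + 0.1), median-ratio size factors, totals without the 20 most abundant genes, a filter at a mean of 1 FPKM, the replicate block and leaving out each mouse. Fold changes of limma include the pseudocount, so that those of rare genes come out too small. The scripts were tested on simulated data.

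The members and lists were chosen with earlier results of these data known. The text names all members and, of each other list, up to 3 increases and 3 decreases past the threshold whose groups did not overlap. The relatives are given by count, and the 10 genes nearest to the mean profile of the members are named. Single relatives and the genes nearest to single members were singled out after their values were seen, as were Srf and Creb1. Upstream and feedback lists were written from textbook knowledge. With 3 mice per group, no permutation test of a single value can go below 0.1.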

Additional observations from a re-analysis of the deposited data

How the results depend on the processing

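The 3 decreases kept their direction and their call in all 14 alternatives, as did Jun. Nr4a3 did so in the 13 in which it was tested, since with the filter at 1 FPKM neither Nr4a3 nor Fosb entered the test. Of 138 alternative fold changes of members, 125 kept direction and call, 6 lost the call, all of Atf3, and 1 gained it, Fosb with median-ratio size factors (adjusted p = 0.0492). In 6 the sign turned: for Fos to -0.027 on log2(TPM + 0.1), and for Nr4a1 to -0.005 with totals without the 20 most abundant genes, -0.027 on log2(FPKM + 0.1), -0.026 on log2(FPKM + 1), -0.062 on log2(TPM + 0.1) and -0.003 without Con mouse 2 (0.059 without Con mouse 1, the highest when a mouse was left out). Members called numbered 2 to 4 higher and 3 lower throughout. The settings with TPM, and those of the 17 ratios, shares and sums, were added after seeing the data. Of 119 alternatives of the latter, 114 stayed within 1 SD with the same sign. The summed JUN level differed by 14.4 in TPM against 11.8 in FPKM. Without a mouse, the difference in the JUN to FOS ratio ranged from -0.115 to 0.0764 around -0.0482, and that in the share of Fosl1, at the floor, from -0.411 to 0.321.

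Same-numbered Con and EX mice did not deviate together (correlations of -0.084, -0.052 and -0.073 over 10883 genes), so the numbers do not pair them. With the replicate block 1856 genes were called, and 3 members were higher and 3 lower, with adjusted p = 0.0644 for Fosb and 0.00245 for Atf3.

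Of 238 alternative counts, 54 moved by over 1.5 times. DESeq2 called 1174 of all genes (628 higher, 546 lower), 3 relatives higher and 1 lower, and 2 lower each of the feedback and upstream lists. Limma on log2(FPKM + 0.1), log2(FPKM + 1) and log2(TPM + 0.1) called 354, 359 and 315 of all genes higher, of 1116, 1105 and 1498 called, against 1016 of 2013. The same fits called 6, 6 and 5 other immediate early genes, 1, 1 and 1 feedback genes, 1, 2 and 1 upstream genes and 3, 3 and 2 NR4A-linked genes higher, and 2, 2 and 3 NR4A-linked genes lower. Totals without the 20 most abundant genes gave 798 higher and 1252 lower, and 2 NR4A-linked genes lower. The median log2 fold change of all genes moved from -0.00 to -0.08 at most.

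When each mouse was left out in turn, 1125 to 1757 genes were called (613 to 912 higher, 497 to 845 lower), with the fewest without EX mouse 1 (1125), EX mouse 3 (1148) and EX mouse 2 (1290). Relatives numbered 3 to 5 higher and 1 to 2 lower (1 without Con mouse 1 or any one EX mouse), other immediate early genes 7 to 9 and 4 to 6 (7 and 4 without EX mouse 1), feedback genes 2 to 2 and 2 to 3, upstream genes 4 to 4 and 2 to 5, and NR4A-linked genes 7 to 7 and 0 to 1. Fewer samples entered these fits. The cause of the other shifts was not tested. Depth limits Fosb most, at 8 to 24 reads, where the interval of the log2 fold change ran from 0.28 to 1.60.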
